A study of Mus musculus with 23 samples.

Results

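The genes described here are the cyclins of the division cycle and the kinases they switch on, in mouse embryonic fibroblasts that carry the oncogene H-Ras V12. The set was chosen by gene symbol, as every probe set annotated to Ccnd1, Ccnd2, Ccnd3, Ccne1, Ccne2, Ccna2, Ccnb1, Ccnb2, Cdk1 or Cdk2. That rule found 22 of the 45037 probe sets on the array that are not controls. They belong to 9 of the 10 genes, and no probe set was listed for Ccnb1, whose level is not analysed here. Of the 22 probe sets 20 passed the filter on low values; one of 3 for Ccnd3 and one of 2 for Cdk2 lay below it in all 23 arrays. Below, a gene stands for the brightest of its probe sets on average, and all 9 genes were among the 15266 tested.

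The study measured RNA on 23 Affymetrix arrays, 1 per sample, in fibroblasts that all received H-Ras V12 by retrovirus and that differed in p53 genotype. WT (n = 6) joins 3 LSL-WT arrays (replicates 1 to 3) and 3 WT arrays (replicates 4 to 6), all with Adeno-Cre, the adenovirus that delivers Cre recombinase and so removes the stop cassette (LSL) in front of a knock-in allele. The group 53,54 (n = 3) carries a knock-in that disrupts the second transactivation domain of p53, 25,26 (n = 5) one that disrupts the first, and QM (n = 3) one that disrupts both, each with Adeno-Cre. Null (n = 6) joins 3 LSL-WT arrays with Adeno-Empty, the virus without Cre (replicates 1 to 3), and 3 Null arrays with Adeno-Cre (replicates 4 to 6). Strain background was 129/Sv or a 129/Sv and C57BL6 mixture, and the arrays of the first and of the second kind numbered 3 and 3 (WT), 1 and 2 (53,54), 4 and 1 (25,26), 2 and 1 (QM), and 4 and 2 (Null). One array, WT replicate 6, bears a title of WT and a genotype entry of LSL-WT, and was grouped by its title. The genotype entry of Null replicate 6 adds the word knock-in, and it too was grouped by its title. The sample titles also carry a number, and arrays with an equal number deviated together across most groups. The 15 fibroblast markers lay above the filter in every array.

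A cyclin is the regulatory subunit that a cyclin-dependent kinase needs to be active, and its level rises and falls through the division cycle. D-type cyclins respond to growth signals and pair with the kinases of early G1, E-type cyclins pair with Cdk2 at the entry into S phase, A-type cyclins act in S and G2 with Cdk2 and Cdk1, and B-type cyclins drive mitosis with Cdk1. Oncogenic Ras stops the division of normal fibroblasts in the state called premature senescence, and fibroblasts that lack p53 escape that arrest. Many genes that peak in G2 and M are repressed through a promoter element called CHR and nearby CCAAT boxes, and many genes that peak at the G1 to S transition through E2F sites.

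The promoters of Ccnb2 and Cdk1, members with closely similar profiles, are shown beside those of Cdk2 and Ccne1, whose profiles differ from theirs. Each is the RefSeq sequence from 250 bases before to 50 bases after the start site in GRCm38.p6, all on the minus strand: Ccnb2 at chr9:70421505-70421804, Cdk1 at chr10:69352863-69353162, Cdk2 at chr10:128705002-128705301 and Ccne1 at chr7:38107441-38107740. Capitals mark the motifs. The CHR was searched as TTTGAA and, in a variant form, as TTTAAA. The CCAAT box was searched by its letters. The E2F site was searched as TTCCCGC and, in another known form, as TTGGCGC. Both strands were searched, so a reversed CCAAT box reads ATTGG in the line. A reversed first form of the E2F site reads GCGGGAA there. No marked motif overlapped another in these 4 windows. Sequences were found for 6 of the 10 members, and not for Ccna2, Ccnd1, Ccnd2 or Ccne2. Those of Ccnb1 and Ccnd3 are not shown.
Ccnb2: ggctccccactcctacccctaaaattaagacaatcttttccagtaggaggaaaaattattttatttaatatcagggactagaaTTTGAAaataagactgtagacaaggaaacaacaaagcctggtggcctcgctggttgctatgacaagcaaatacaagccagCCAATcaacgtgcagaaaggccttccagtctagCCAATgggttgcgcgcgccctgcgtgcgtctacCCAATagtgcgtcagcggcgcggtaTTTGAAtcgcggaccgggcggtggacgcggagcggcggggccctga
Cdk1: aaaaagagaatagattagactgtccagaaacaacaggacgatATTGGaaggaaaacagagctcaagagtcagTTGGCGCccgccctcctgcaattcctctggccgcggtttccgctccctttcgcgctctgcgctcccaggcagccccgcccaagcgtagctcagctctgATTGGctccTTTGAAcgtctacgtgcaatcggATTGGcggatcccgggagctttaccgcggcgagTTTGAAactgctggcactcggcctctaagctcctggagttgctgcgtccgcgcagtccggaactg
Cdk2: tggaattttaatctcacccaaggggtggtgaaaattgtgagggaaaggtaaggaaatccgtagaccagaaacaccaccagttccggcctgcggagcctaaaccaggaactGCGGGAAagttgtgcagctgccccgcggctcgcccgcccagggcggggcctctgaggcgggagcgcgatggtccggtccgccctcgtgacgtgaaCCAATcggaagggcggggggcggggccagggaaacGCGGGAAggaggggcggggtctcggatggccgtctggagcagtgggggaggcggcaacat
Ccne1: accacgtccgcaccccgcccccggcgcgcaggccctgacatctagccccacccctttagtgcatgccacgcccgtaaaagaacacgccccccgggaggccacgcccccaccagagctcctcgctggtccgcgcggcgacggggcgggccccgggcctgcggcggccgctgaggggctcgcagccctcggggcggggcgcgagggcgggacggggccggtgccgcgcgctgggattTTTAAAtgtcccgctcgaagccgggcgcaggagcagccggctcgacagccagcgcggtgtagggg

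The Ccnb2 window held 2 TTTGAA and 3 CCAAT, and the Cdk1 window held 2 TTTGAA, 3 CCAAT on the reverse strand and 1 TTGGCGC. The Cdk2 window held 1 CCAAT and 2 TTCCCGC on the reverse strand, and the Ccne1 window only 1 TTTAAA. The Ccnb1 window, not shown, held no TTTGAA, 1 TTTAAA, 2 CCAAT and 1 TTGGCGC, and no Ccnd3 window held TTTGAA. Whether these motifs bear on the profiles was not tested. Among 32851 promoters of this length 17.9% held TTTGAA, 37.4% CCAAT, 6.95% both, 3.37% at least 3 CCAAT, 4.6% TTCCCGC, 2.45% TTGGCGC and 13.2% TTTAAA. A match in these letters is a description and not a bound site.

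Wild-type p53 was set against its absence to find what p53 does to the cyclins in cells with oncogenic Ras. Among the 9 genes, 5 fell in WT arrays (Ccna2, Ccnb2, Cdk1, Cdk2 and Ccne2) and 2 rose (Ccnd2 and Ccnd1), by limma's moderated test with Benjamini-Hochberg adjustment over all genes tested and a threshold of 0.05. Over all 15266 genes 22.7% passed, 10.9% higher and 11.8% lower in WT. The median difference of the 9 genes was -0.60 on the log2 scale, against 0.00 over all genes. Differences below are log2 differences with the standard error (SE) after ±, and levels are log2 intensities. Probe sets differ in brightness, so levels are compared between groups and not between genes. In bulk RNA, fewer cells with a transcript and less of it per cell cannot be told apart.

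**Figure D1:**
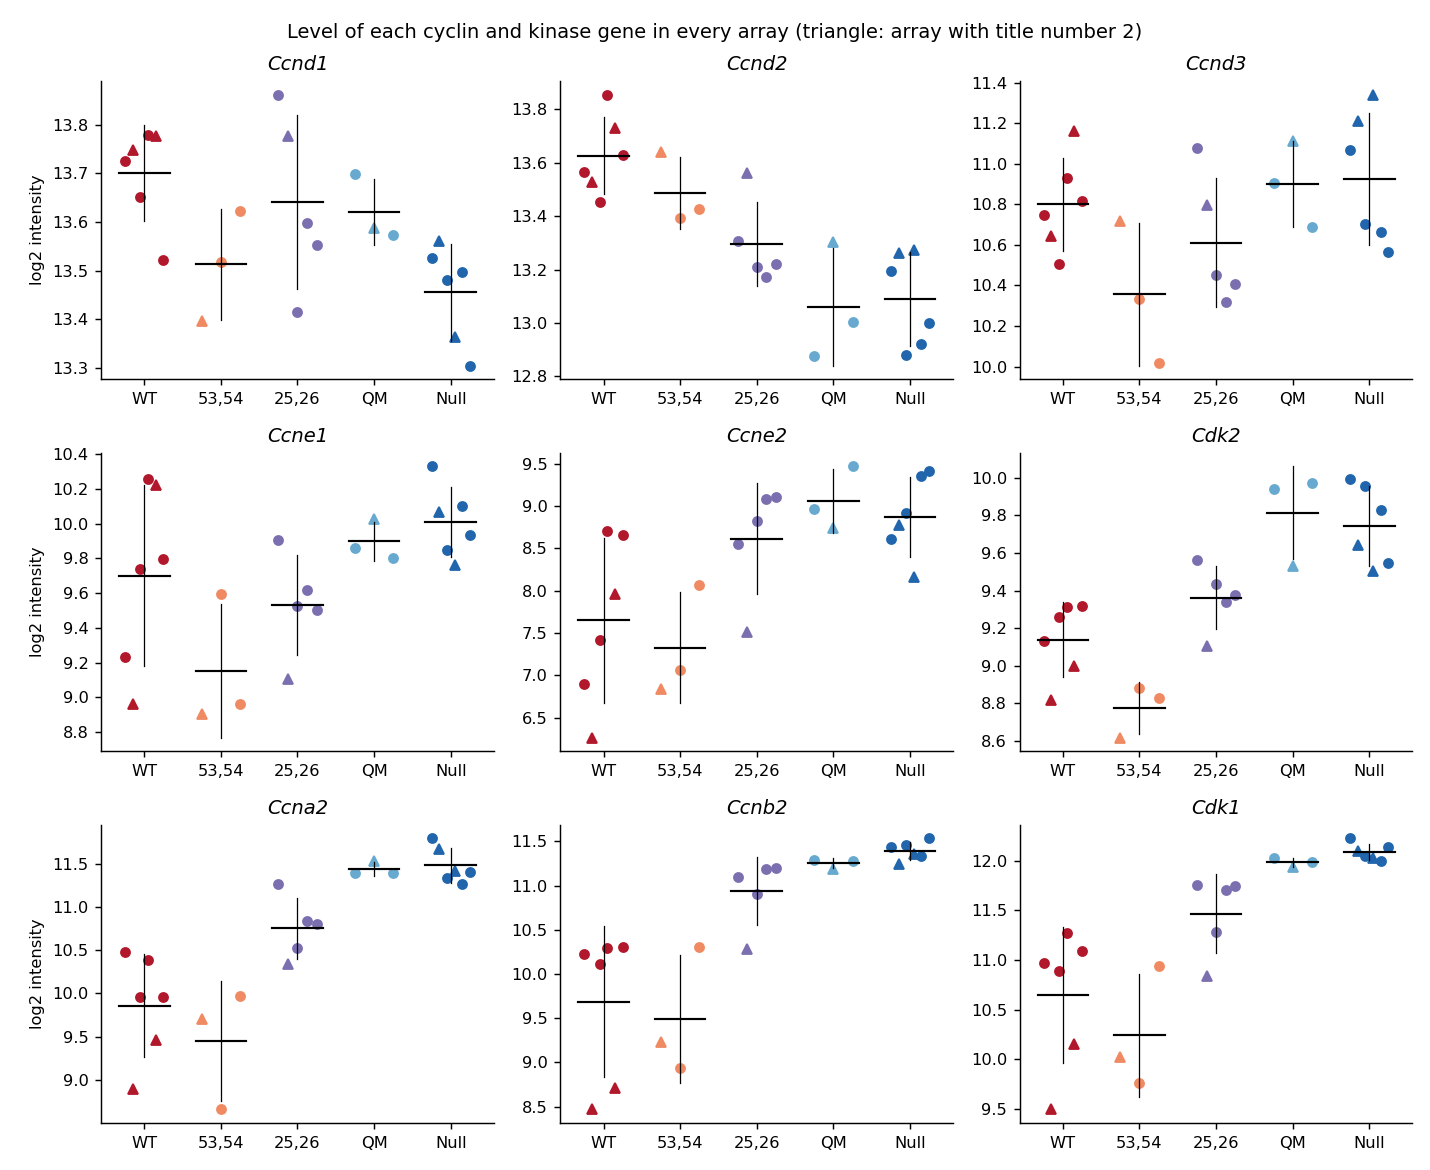
Log2 intensity of the 9 genes (vertical axis) in each of the 23 arrays by group (horizontal axis). Points are arrays, triangles those with title number 2, thick lines group means and thin lines 1 SD on either side. Ccna2, Ccnb2 and Cdk1 lie lower in every WT and 53,54 array than in any Null array.

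Cyclin A2 (Ccna2), which carries cells through S phase and into mitosis, lay in WT arrays at 8.89, 9.96 and 10.48 (lowest, median and highest), against 11.27, 11.41 and 11.80 in Null arrays. Every WT array was below every Null array. The difference was -1.63 ± 0.24 (adjusted p = 3.2e-05), a level 3.09-fold lower in WT. Its other probe set gave -1.69. Groups without overlap, with WT lower, were seen in 5.16% of all genes.

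Cyclin B2 (Ccnb2), a mitotic partner of Cdk1, lay at 8.47, 10.17 and 10.31 in WT arrays, against 11.24, 11.40 and 11.54 in Null arrays. WT replicates 2 and 5, both with title number 2, were well below the other 4 WT arrays, which lay close together, and no WT array reached the Null range. It fell by 1.71 in WT (SE 0.29, adjusted p = 0.000185). Cdk1, the kinase that starts mitosis, had the same shape, at 9.50, 10.93 and 11.28 in WT arrays against 12.00, 12.08 and 12.23 in Null arrays. The groups did not overlap, and Cdk1 fell by 1.44 (SE 0.25, adjusted p = 0.000177). Null arrays were tight for both genes (SD 0.10 for Ccnb2 and 0.08 for Cdk1), while WT arrays spread widely (SD 0.86 and 0.68).

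Leaving out the arrays with title number 2 gave a smaller fall in Ccnb2 (-1.20, adjusted p = 0.000743), Ccna2 (-1.26, adjusted p = 0.00214) and Cdk1 (-1.05, adjusted p = 0.00159). Within the 129 background alone the WT minus Null differences of Ccna2, Ccnb2 and Cdk1 were -1.86, -2.21 and -1.76, and within the mixed background -1.43, -1.23 and -1.16. All 3 genes were lower in WT in both backgrounds.

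Cdk2, the kinase of S phase entry, lay at 8.82, 9.20 and 9.32 in WT arrays, against 9.50, 9.73 and 9.996 in Null arrays. The groups did not overlap, and the fall of 0.60 (SE 0.11, adjusted p = 0.000401) was smaller than in the mitotic genes. Its partner cyclin E2 (Ccne2) lay at 6.27, 7.69 and 8.71 in WT arrays, against 8.16, 8.85 and 9.41 in Null arrays, so the groups overlapped. Ccne2 fell by 1.22 (SE 0.37, adjusted p = 0.0204). That call ended without WT replicate 1 or WT replicate 2 (adjusted p from 0.0514 to 0.0579), with the Null Cre arrays alone as Null (adjusted p = 0.0741) and with Xist as a covariate (-1.15, adjusted p = 0.0537). Cyclin E1 (Ccne1), the other partner, lay at 8.96, 9.77 and 10.25 in WT arrays and 9.77, 10.002 and 10.33 in Null arrays. Its difference of -0.31 ± 0.19 (adjusted p = 0.294, 95% interval -0.71 to 0.09) did not pass. With the LSL-WT Cre arrays alone as WT it was -0.70 and passed (adjusted p = 0.0143).

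Of the D cyclins, Ccnd2 and Ccnd1 went the other way, and Ccnd3 did not. Cyclin D2 (Ccnd2), which links growth signals to the G1 kinases, was higher in WT arrays, at 13.45, 13.60 and 13.86, against 12.88, 13.10 and 13.27 in Null arrays. The groups did not overlap and the rise was 0.54 ± 0.10 (adjusted p = 0.000312). Among all genes 5.04% separated in that direction. Cyclin D1 (Ccnd1), the D cyclin best known as a target of Ras signalling, rose by 0.25 ± 0.08 (adjusted p = 0.0234), with 13.52, 13.74 and 13.78 in WT arrays against 13.30, 13.49 and 13.56 in Null arrays. The Ccnd1 call ended without Null replicate 6 or WT replicate 5 (adjusted p from 0.0523 to 0.0606), without the arrays of title number 2 (adjusted p = 0.156), with Xist as a covariate (adjusted p = 0.0744) and with the LSL-WT Cre arrays alone as WT (adjusted p = 0.0786). Cyclin D3 (Ccnd3) lay at 10.50, 10.78 and 11.16 in WT arrays and 10.56, 10.89 and 11.34 in Null arrays, and its difference of -0.13 ± 0.16 did not pass (adjusted p = 0.674).

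**Figure D2:**
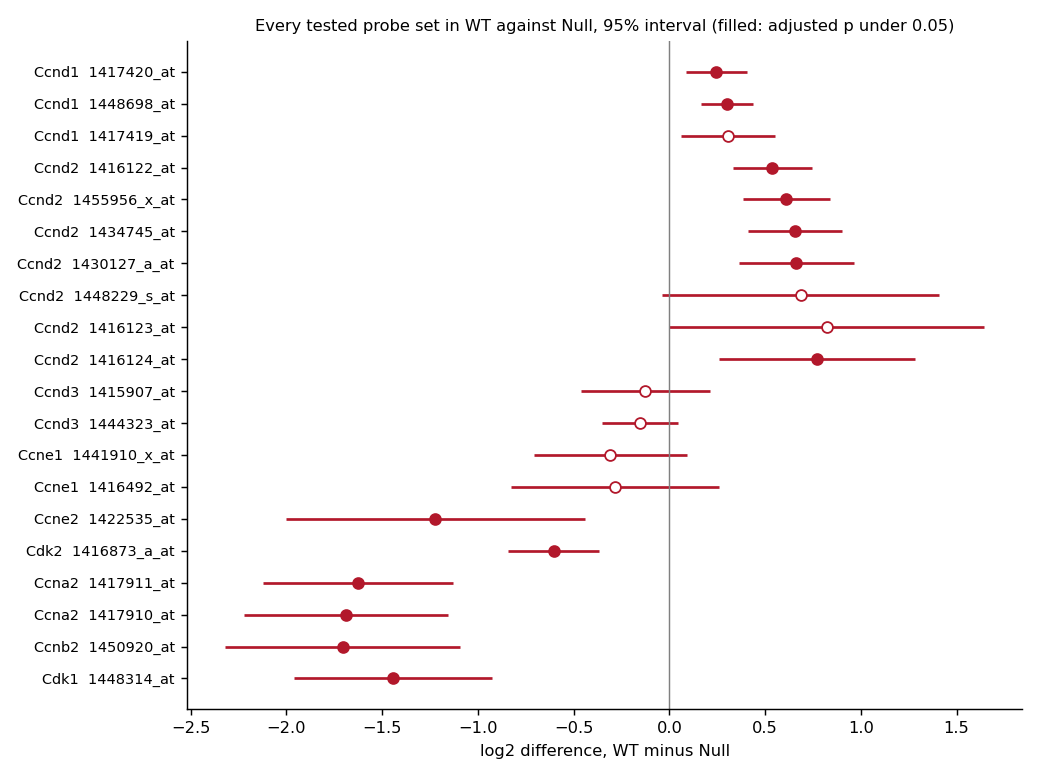
Log2 difference of WT minus Null (horizontal axis) for each tested probe set of the genes (vertical axis), with its 95% interval. Filled points passed an adjusted p of 0.05 over all probe sets. All 7 Ccnd2 probe sets and all 3 Ccnd1 probe sets lie above 0, and both Ccna2 probe sets lie below -1.5.

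Probe sets of 1 gene were compared in a fit over all 33942 probe sets that passed the filter. In that fit 16.9% of probe sets changed in WT. Of the 7 Ccnd2 probe sets 5 rose in WT, with differences over all 7 of 0.54 to 0.82, and of the 3 Ccnd1 probe sets 2 rose, over 0.25 to 0.31. Both Ccna2 probe sets fell, and neither Ccne1 nor Ccnd3 had a probe set that passed. The 2 Ccnd2 probe sets that did not pass, 1416123_at and 1448229_s_at, were highest in the array with title number 2 in 7 of 7 sets of arrays that share a genotype and virus, by medians of 1.30 and 1.14. The Ccnd2 probe set 1455956_x_at was lowest in that array in 6 of the 7. For Ccne1, 1416492_at was highest there in 6 of the 7 and 1441910_x_at lowest in 4 of the 7. Cdk2 was lowest in the array with title number 2 in 7 of the 7 (median difference from the others -0.32), and Ccnb2 and Cdk1 lay below the mean of the others in 7 of the 7. The part of the title number in these levels beyond those values was not tested.

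The WT comparison has 2 parts, LSL-WT cells with Cre against the same allele with Empty virus, and WT against Null cells, both with Cre. The virus and p53 differ together in the first, so they cannot be told apart there. In the LSL-WT part 6 of the 9 genes fell and none rose, against 11.7% of all genes changed, 4.8% higher and 6.89% lower. In the separate lines 3 fell and 1 rose, against 15.9% changed, 8.75% higher and 7.19% lower. Ccna2 fell by 1.82 (SE 0.35) in the LSL-WT part and by 1.43 (SE 0.35) in the separate lines (adjusted p = 0.00149 and 0.00743). Ccnb2 fell by 1.77 (SE 0.43) and 1.64 (SE 0.43), with adjusted p of 0.00971 and 0.0134, and Cdk1 by 1.67 (SE 0.36) and 1.21 (SE 0.36), with adjusted p of 0.00353 and 0.0239. These 3 mitotic and S phase genes were lower in both parts without overlap, as 14.4% of all genes were in the LSL-WT part and 12.6% in the separate lines. The Ccnb2 call ended without WT replicate 2 in the LSL-WT part (adjusted p = 0.0815) and without WT replicate 5 in the separate lines (adjusted p = 0.0934). Fitted with the compared arrays alone, Cdk1, Ccnb2 and Ccne1 did not pass in the LSL-WT part (adjusted p = 0.059, 0.0761 and 0.107). The Cdk1 call in the separate lines ended without any one of Null replicates 4, 5 and 6 and WT replicate 5 (adjusted p from 0.0538 to 0.143).

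The E cyclins gave the widest gap between the parts. Ccne2 lay at 6.89, 6.27 and 7.41 in the LSL-WT arrays with Cre (replicates 1 to 3), against 8.61, 8.78 and 8.91 with Empty virus, a fall of 1.91 (SE 0.42, adjusted p = 0.0044). In the separate lines it lay at 8.71, 7.96 and 8.66 in WT arrays (replicates 4 to 6), against 8.16, 9.36 and 9.41 in Null arrays (replicates 4 to 6). There the groups overlapped and the difference of -0.53 ± 0.42 did not pass (adjusted p = 0.473). The difference between the parts for Ccne2 was -1.38 ± 0.59 (adjusted p = 0.579), and -1.63 ± 0.31 once title numbers entered as a block (adjusted p = 0.0238), where 1.6% of all genes passed. Ccne1 fell by 0.77 (SE 0.22, adjusted p = 0.0239) in the LSL-WT part, a call lost without any one of WT replicates 1 and 2 and Null replicates 1 and 2 (adjusted p from 0.0579 to 0.155). In the separate lines Ccne1 differed by 0.16 ± 0.22 (adjusted p = 0.737), and the difference between the parts, -0.93 ± 0.31, did not pass (adjusted p = 0.361).

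Cdk2 fell by 0.79 (SE 0.15, adjusted p = 0.00175) in the LSL-WT part. In the separate lines its difference was -0.42 ± 0.15 (adjusted p = 0.0766), and -0.48 with the block (adjusted p = 0.000148), which called 28.1% of all genes there. With strain as a term it was -0.47 and passed (adjusted p = 0.0311), where 2576 of 15266 genes did. Ccnd1 differed there by 0.30 ± 0.11 (adjusted p = 0.066). It passed with strain (adjusted p = 0.0271), averaged over its probe sets (0.00803), with quantile normalization (0.0477) or with another variance estimate (0.0417). Ccnd2 rose by 0.67 ± 0.13 (adjusted p = 0.00187) in the separate lines. In the LSL-WT part it differed by 0.40 ± 0.13 (adjusted p = 0.0599), and the block brought this to an adjusted p of 0.00381. With the block Ccnd3, at -0.36 in the LSL-WT part, also passed (adjusted p = 0.0155), and 26.7% of all genes did. Without the block none of the 9 genes differed past the threshold between the parts, where 0.00655% of all genes did, and 2 of the 9 and 1193 of all genes had an unadjusted p under 0.05.

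**Figure D3:**
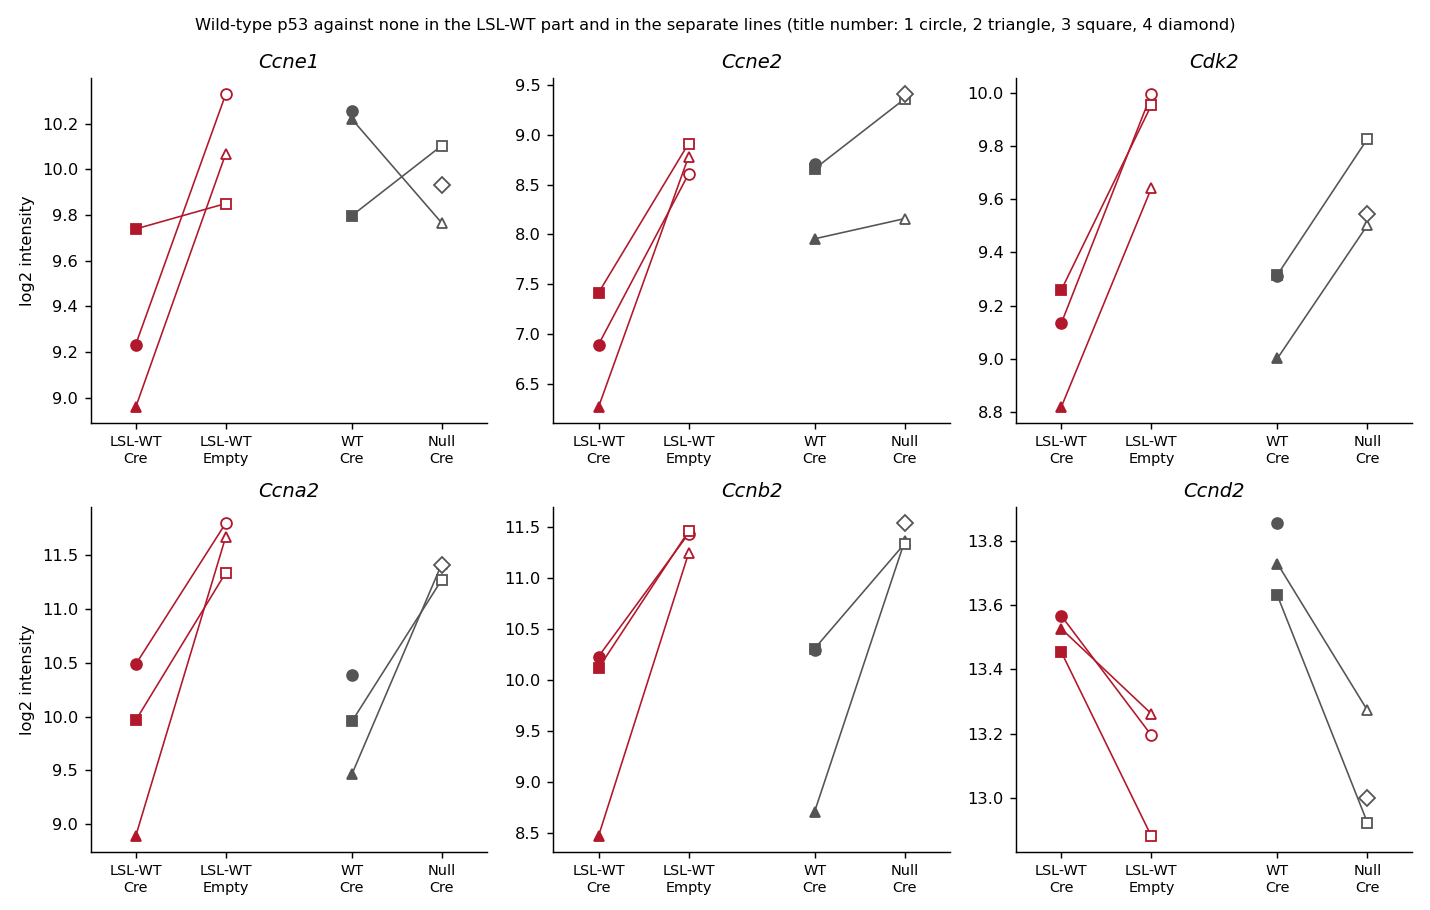
Log2 intensity (vertical axis) of 6 of the genes in the LSL-WT part (left pair in each panel) and the separate lines (right pair). Points are arrays, filled with p53 and open without, marker shapes give the title number, and lines join arrays with the same number. Ccne2 is lower with p53 in every pair, with the steeper lines in the LSL-WT part.

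Xist, an RNA made from the silenced X chromosome, measured 11.47 to 11.86 in the WT arrays of the separate lines and at 5.72 to 6.81 in the Null arrays, so there its level and p53 cannot be told apart by group. Adding Xist to the model as a covariate gave differences in the separate lines of -1.01 for Ccna2 (adjusted p = 0.0981), -1.10 for Ccnb2 (adjusted p = 0.153) and -0.78 for Cdk1 (adjusted p = 0.233). In the LSL-WT part Xist lay at 6.40 to 12.71 with Cre and at 6.32 to 12.62 with Empty virus, and the same 6 genes passed with and without the covariate. With it 8.55% of all genes passed in the separate lines and 12.2% in the LSL-WT part. In all WT against all Null arrays it left 5 of the 7 calls, without Ccnd1 and Ccne2, where 18.4% of all genes passed.

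The group 53,54 was compared with Null to ask what p53 without its second activation domain does to the same genes. In 53,54 arrays 7 of the 9 genes fell, and Ccnd2 rose, against 19.6% of all genes changed, 9.22% higher and 10.3% lower. The median difference of the 9 was -0.97, against -0.02 over all genes. This comparison and that of WT use the same Null arrays.

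Ccna2 lay at 9.70, 8.66 and 9.98 in the 3 53,54 arrays, all below the lowest Null array at 11.27, a fall of 2.04 (SE 0.29, adjusted p = 2.45e-05). Ccnb2 lay at 9.23, 8.94 and 10.31 in 53,54 arrays, against 11.24 and above in Null arrays, and fell by 1.90 (SE 0.36, adjusted p = 0.000507). Cdk1 lay at 10.02, 9.77 and 10.94 in 53,54 arrays, against 12.00 and above in Null arrays, and fell by 1.85 (SE 0.30, adjusted p = 0.000112). Replicate 4 was the highest 53,54 array for all 3 genes, and no 53,54 array reached the Null range for any of them.

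Cdk2 lay at 8.62, 8.88 and 8.83 in 53,54 arrays and fell by 0.97 (SE 0.14, adjusted p = 2.38e-05), a level 1.96-fold lower than in Null arrays. Of its cyclins, Ccne2 fell by 1.54 (SE 0.46, adjusted p = 0.0193), with 6.84, 7.07 and 8.07 in 53,54 arrays. Ccne1 fell by 0.85 (SE 0.23, adjusted p = 0.0116), with 8.90, 9.60 and 8.96 in 53,54 arrays, and both of its probe sets passed (7.49% of all probe sets fell). None of these 3 genes had a 53,54 array within the Null range. Over all genes 10.4% separated that way, and 9.32% with 53,54 higher. Ccne2 did not pass without 53,54 replicate 2 or 3 (adjusted p from 0.0981 to 0.116), nor Ccne1 without 53,54 replicate 2 or 4 (0.0606 to 0.081), nor either with the Null Cre arrays alone as Null (0.0583 and 0.0736). With 1 array left out the differences ran from -1.92 to -1.30 for Ccne2 and from -1.08 to -0.73 for Ccne1.

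Among the D cyclins, Ccnd2 rose by 0.40 ± 0.12 (adjusted p = 0.0206), with 13.64, 13.39 and 13.43 in 53,54 arrays, all above the highest Null array at 13.27. Ccnd3 fell by 0.57 (SE 0.20, adjusted p = 0.0455), with 10.72, 10.33 and 10.02 in 53,54 arrays, a range that overlaps that of Null. The Ccnd2 call ended without 53,54 replicate 2 (adjusted p = 0.136), and that of Ccnd3 without 53,54 replicate 3 or 4 or Null replicate 1, 2 or 4 (adjusted p from 0.0778 to 0.253). Ccnd2 also did not pass averaged over its 7 probe sets (adjusted p = 0.101) or with the compared arrays alone (0.0511). Ccnd3 also did not pass with no filter, with strain as a term, with the compared arrays alone, without title number 2, with the Null Cre arrays alone or over all probe sets (adjusted p from 0.0518 to 0.182). Ccnd1 differed by 0.06 ± 0.09 (adjusted p = 0.771).

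Set directly against WT, 53,54 arrays showed no gene of the 9 past the threshold, where 0.367% of all genes passed. Unadjusted p was under 0.05 for 3 of the 9 (Cdk2, Ccne1 and Ccnd3) and for 1100 of all genes. The means of all 9 genes were lower in 53,54 than in WT arrays, by 0.14 (Ccnd2) to 0.55 (Ccne1). Within the 129 background, where 53,54 has 1 array (replicate 4) and WT 3, the differences were 0.39 for Ccna2, 1.15 for Ccnb2, 0.63 for Cdk1 and 0.43 for Ccne2. Within the mixed background, with 2 arrays against 3, they were -0.95, -1.13, -1.09 and -0.70. The direction of these 4 genes thus turned between backgrounds. Both WT arrays with title number 2 (replicates 2 and 5) are on the 129 background, and the 53,54 array with that number is on the mixed one. WT replicate 4 is also on the 129 background but has title number 1, so strain and title number go together only in part. The part of each in this turn was not tested. The 95% intervals were -1.02 to 0.19 for Ccna2, -0.94 to 0.55 for Ccnb2, -1.04 to 0.22 for Cdk1 and -0.65 to -0.08 for Cdk2. The ranges of 53,54 and WT arrays overlapped for every one of the 9 genes, while 2.59% of all genes separated. With array weights Ccna2 (-1.03) and Cdk1 (-0.84) passed (adjusted p = 0.0106 and 0.0272), where 4.81% of all genes passed.

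**Figure D4:**
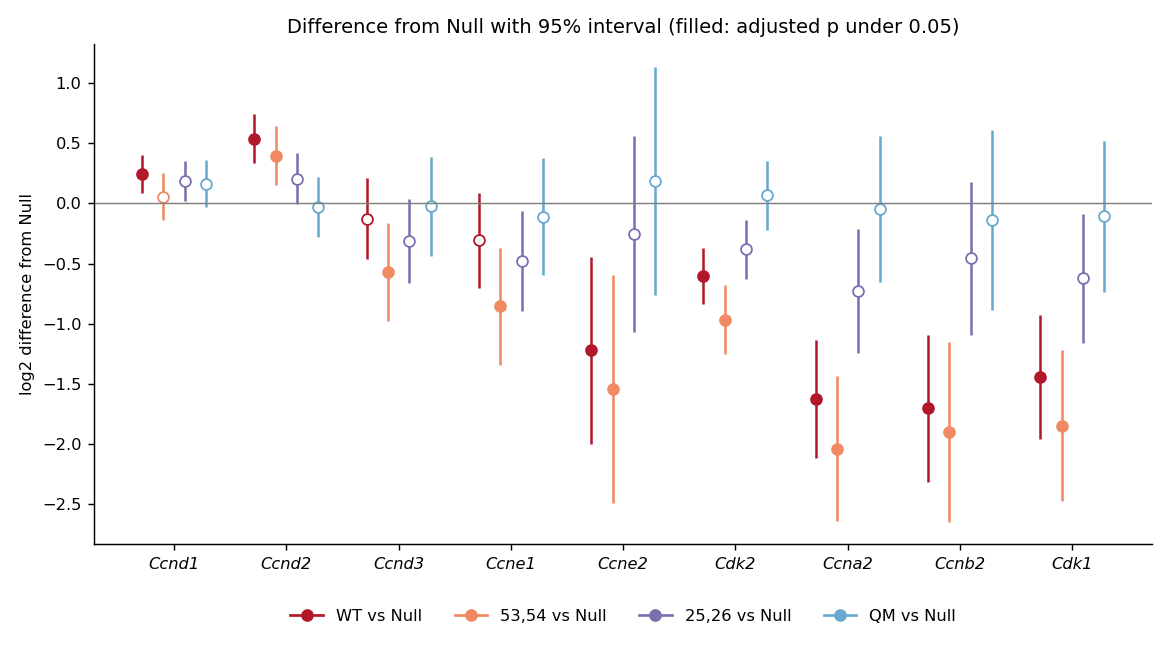
Log2 difference of WT, 53,54, 25,26 and QM from Null (vertical axis) for the 9 genes (horizontal axis), with 95% intervals. Filled points passed an adjusted p of 0.05. The filled points belong to WT and 53,54, and the QM points lie within 0.2 of 0.

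The group 25,26 tests p53 without its first activation domain. None of the 9 genes passed against Null, where 4.3% of all genes did, 3.02% higher and 1.28% lower. An unadjusted p under 0.05 was seen for 5 of the 9 and for 2521 of all genes. Ccna2 lay at 11.27, 10.34, 10.52, 10.84 and 10.80 in 25,26 arrays, against 11.27 to 11.80 in Null arrays. Cdk1 lay at 11.76, 10.84, 11.28, 11.71 and 11.74 in 25,26 arrays, against 12.00 to 12.23 in Null arrays, and Ccnb2 at 11.10, 10.28, 10.91, 11.19 and 11.20, against 11.24 to 11.54. In all 3 genes no 25,26 array reached the Null range (replicate 1 came within rounding of it for Ccna2), a separation seen in 1.81% of all genes, and replicate 2 was the lowest.

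The differences of 25,26 from Null were -0.73 ± 0.25 for Ccna2 (adjusted p = 0.113), -0.62 ± 0.26 for Cdk1 (adjusted p = 0.213), -0.46 ± 0.31 for Ccnb2 (adjusted p = 0.51) and -0.38 ± 0.12 for Cdk2 (adjusted p = 0.0751). Same-number arrays of these groups deviated together, and 3 genes passed when title numbers formed a block: Ccna2 at -0.82 (adjusted p = 0.0257), Cdk1 at -0.78 (adjusted p = 0.0252) and Cdk2 at -0.40 (adjusted p = 0.000631). With the block 14.2% of all genes passed. The block gives 25,26 replicate 5, the only array with its number, no weight in the difference. Fitted with the compared arrays alone, Ccna2 (SE 0.16, adjusted p = 0.0209) and Cdk1 (SE 0.15, adjusted p = 0.0402) passed, where 637 of 15266 genes did. Cdk2 passed with array weights (-0.42, adjusted p = 0.00662), which called 9.4% of all genes. It also passed without title number 2 (-0.40, adjusted p = 0.036), where 505 of 15266 genes did. Ccne2 differed by -0.26 ± 0.39 and, without 25,26 replicate 2, by 0.02. The D cyclins Ccnd1, Ccnd2 and Ccnd3 differed by 0.19, 0.21 and -0.31, with adjusted p from 0.236 to 0.374, and Ccne1 by -0.48 (adjusted p = 0.219).

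Against WT, 25,26 arrays had higher Ccna2 (0.90 ± 0.25, adjusted p = 0.0294) and Ccnb2 (1.25 ± 0.31, adjusted p = 0.0148), while Ccnd2 was at the threshold (-0.33 ± 0.10, adjusted p = 0.05 after rounding). Over all genes 7.7% passed, 4.34% higher and 3.36% lower. The ranges of the groups overlapped in all 3 genes, while 4.43% of all genes separated. Ccnb2 passed with each of the 11 arrays left out in turn (adjusted p up to 0.0465). Ccna2 did not pass without 25,26 replicate 1, 4 or 5 or WT replicate 2 or 5 (adjusted p from 0.0598 to 0.0879), and Ccnd2 in 9 of 11 such fits, those without 25,26 replicate 1, 3, 4 or 5 or WT replicate 1, 2, 4, 5 or 6 (adjusted p from 0.055 to 0.138). Fitted with these arrays alone, none of the 3 passed (adjusted p from 0.0796 to 0.0885). With the LSL-WT Cre arrays alone as WT, Ccna2 (adjusted p = 0.0919) and Ccnd2 (0.432) did not pass, where 505 of 15266 genes did. Ccne2 was higher in 25,26 by 0.97 ± 0.39 (adjusted p = 0.152). It passed with the LSL-WT Cre arrays alone as WT (1.76, adjusted p = 0.0126). It also passed with array weights (1.29, adjusted p = 0.00763), which called 15% of all genes. Cdk1 was higher by 0.82 ± 0.26 (adjusted p = 0.0563) and passed without 25,26 replicate 2 or WT replicate 4 or 6 (adjusted p from 0.0245 to 0.0435). Cdk1 passed as well with a filter on the mean (adjusted p = 0.0472), where 1226 of 11470 genes did. With Xist as a covariate it passed (0.0298, with 9.41% of all genes), and so it did with array weights (0.00722). Under the remaining settings Cdk1 did not pass. With the block Cdk2, at 0.25, passed too (adjusted p = 0.0232), where 12% of all genes did.

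Against 53,54, 25,26 arrays had higher Ccna2 (1.31 ± 0.30, adjusted p = 0.0125), Ccnb2 (1.44 ± 0.37, adjusted p = 0.0256), Cdk1 (1.23 ± 0.31, adjusted p = 0.0243) and Cdk2 (0.59 ± 0.14, adjusted p = 0.0174), where 4.67% of all genes passed, 2.5% higher in 25,26. Ccna2 and Cdk2 had no overlap between the groups, as in 5.61% of all genes. None of the 4 passed without 53,54 replicate 3 (adjusted p from 0.0629 to 0.241). Ccnb2 and Cdk1 also did not pass without 53,54 replicate 2 or 25,26 replicate 1, 4 or 5, nor Cdk2 without 53,54 replicate 2 or 25,26 replicate 1.

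QM, with both activation domains disrupted, showed none of the 9 genes past the threshold against Null, and none with an unadjusted p under 0.05, where 0.0131% of all genes passed and 377 had such a p. Ccna2 lay at 11.40, 11.53 and 11.39 in QM arrays, inside the Null range of 11.27 to 11.80. Cdk1 lay at 12.03, 11.93 and 11.98 in QM arrays, against 12.00 to 12.23 in Null arrays, and Cdk2 at 9.94, 9.53 and 9.97, against 9.50 to 9.996. The 95% interval of the QM minus Null difference was -0.65 to 0.56 for Ccna2, -0.89 to 0.61 for Ccnb2, -0.74 to 0.52 for Cdk1 and -0.22 to 0.36 for Cdk2. These intervals leave out the WT minus Null differences of the 4 genes (-1.63, -1.71, -1.44 and -0.60). Ccnd1 lay above every Null array in all 3 QM arrays (13.70, 13.59 and 13.57, against at most 13.56), with a difference of 0.16 ± 0.09 and an unadjusted p of 0.0936 from limma. Such a separation was seen in 0.95% of all genes.

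Against WT, QM arrays had 5 genes higher and Ccnd2 lower, where 13.9% of all genes passed, 8.16% higher and 5.76% lower. Ccna2 was higher by 1.58 ± 0.29 (adjusted p = 0.0008), Ccnb2 by 1.57 ± 0.36 (adjusted p = 0.00478), Cdk1 by 1.34 ± 0.30 (adjusted p = 0.00437) and Cdk2 by 0.68 ± 0.14 (adjusted p = 0.00193). Ccnd2 fell by 0.57 (SE 0.12, adjusted p = 0.00249), with 12.87, 13.30 and 13.00 in QM arrays, all below the lowest WT array at 13.45. None of these 5 genes overlapped between the groups (15.3% of all genes did not), and each passed with every array left out in turn (adjusted p up to 0.0302). Fitted with the compared arrays alone, Ccnb2 did not pass (adjusted p = 0.0573). Ccne2 was higher by 1.41 ± 0.46 (adjusted p = 0.043), a call lost without any of QM replicates 1 to 3 or of WT replicates 1, 2, 3 and 5 (adjusted p from 0.0505 to 0.187).

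The other pairs of mutants split in the same places. In 53,54 against QM, 5 genes fell (Ccna2 by 1.99, Ccnb2 by 1.76, Cdk1 by 1.74, Ccne2 by 1.73 and Cdk2 by 1.04, adjusted p from 0.000113 to 0.0311) and Ccnd2 rose by 0.43 (adjusted p = 0.0428), where 13.3% of all genes passed, 5.69% higher and 7.63% lower. The Ccnd2 call did not hold without any of 53,54 replicates 2 to 4 or QM replicates 1 and 3 (adjusted p from 0.0621 to 0.209). That of Ccne2 did not hold without 53,54 replicate 2 or 3 or QM replicate 1 or 3 (0.0715 to 0.127). Ccnd2 also did not pass averaged over its 7 probe sets (adjusted p = 0.202). In the fit over all probe sets none of the 7 passed. Ccne1 differed by -0.74 without overlap and did not pass (adjusted p = 0.0767). Averaged over its 2 probe sets Ccne1 passed (adjusted p = 0.021). In the fit over all probe sets 1 of those 2 passed (adjusted p = 0.0316). In 25,26 against QM none passed, where 0.675% of all genes did, and 2 of the 9 (Ccna2 and Cdk2) and 1420 of all genes had an unadjusted p under 0.05. Ccna2 differed by -0.68 ± 0.30 (adjusted p = 0.458) and Cdk2 by -0.45 ± 0.14 (adjusted p = 0.197).

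The groups took the same order of mean level in Ccna2, Ccnb2 and Cdk1, with 53,54 lowest and then WT, 25,26, QM and Null. For Ccna2 these means were 9.44 ± 0.69 in 53,54, 9.86 ± 0.60 in WT, 10.75 ± 0.35 in 25,26, 11.44 ± 0.08 in QM and 11.48 ± 0.20 in Null (SD, n = 3, 6, 5, 3 and 6). Of the 4 pairs of neighbours in that order, WT and 25,26 differed past the threshold for Ccna2 and Ccnb2, and the other neighbours did not. Cdk2 and Ccne2 had 53,54, WT, 25,26, Null and QM from low to high, and no pair of neighbours passed. Ccne1 and Ccnd3 had 53,54, 25,26, WT, QM and Null, again with no neighbours apart. Ccnd2 ran nearly the other way, from 13.06 ± 0.22 in QM (n = 3) and 13.09 ± 0.18 in Null (n = 6) through 13.30 ± 0.16 in 25,26 (n = 5) and 13.49 ± 0.13 in 53,54 (n = 3) to 13.63 ± 0.15 in WT (n = 6). Ccnd1 spanned the least, from 13.46 ± 0.10 in Null to 13.70 ± 0.10 in WT (SD, n = 6 each).

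Likeness between profiles was measured over the 23 arrays as the root mean square of the difference between log2 levels, each gene centred on its own mean. These arrays share the groups and the title numbers, so the measure describes only how closely 2 profiles run. Cdk1 ran closest to Aurka, Tpx2 and Asf1b (0.13 to 0.16 log2 units, with an SD of Cdk1 over arrays of 0.81). Ccnb2 ran closest to Kif20a, Top2a and Cdca3 (0.14 to 0.15), and Ccna2 to Plk1, Fignl1 and Tk1 (0.17 to 0.18). Aurka and Plk1 encode mitotic kinases, Tpx2 and Kif20a proteins of the spindle, Top2a the topoisomerase of dividing cells and Tk1 thymidine kinase. Among the members themselves Cdk1 and Ccnb2 were 0.21 apart and Cdk1 and Ccna2 0.22.

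The G1 genes had other neighbours. Ccne2 ran closest to Wdhd1, Lin9 and Tcf19 (0.34 to 0.36), Ccne1 to Rrp1b, E2f6 and Slc7a6 (0.23 to 0.25) and Cdk2 to Cdkn2aipnl, Smc6 and Elp4 (0.13 to 0.14). Ccnd1 ran closest to Rab1b, Vps35 and S100a6, Ccnd2 to Timp2, Ikbkg and Capzb, and Ccnd3 to Serpinh1, Plod3 and Fjx1. For Ccnd1 the nearest distance, 0.098, was close to its own SD over arrays of 0.14. Ccne1 and Ccne2 were 0.71 apart, farther than Ccne2 was from Cdk1 (0.48).

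The genes around the cyclins were counted in lists, with the 4 of each list that had the largest statistic in WT against Null named. The counts below stand against 10.9% of all genes higher and 11.8% lower in WT, 9.22% and 10.3% in 53,54, and 3.02% and 1.28% in 25,26, each against Null. Among 8 inhibitors of the kinases 1 rose and 4 fell in WT arrays. The riser was Cdkn1a, the p53 target p21, at 2.53 ± 0.21 (adjusted p = 1.98e-08), and Cdkn1b (-1.05 ± 0.24), Cdkn2d (-0.88 ± 0.10) and Cdkn3 (-1.64 ± 0.32) fell. The list's median was -0.69. In 53,54 arrays 2 rose and 3 fell, with Cdkn1a at 2.47 ± 0.26, and in 25,26 arrays Cdkn1a rose by 0.78 ± 0.22 (adjusted p = 0.0471) and Cdkn2d fell by 0.53.

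Of 12 activators, partners and brakes of the kinases 1 rose and 7 fell in WT arrays (median -0.37). Cdc25b, a phosphatase that activates Cdk1, fell by 1.39 in WT and by 1.67 in 53,54 arrays. Mastl, the Greatwall kinase of mitosis, fell by 1.27 in both, and the kinase-binding subunits Cks2 and Cks1b fell by 0.95 and 0.57 in WT arrays. In 25,26 arrays 1 of the 12, Cks2, fell (-0.46 ± 0.13, adjusted p = 0.0481).

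Among 15 genes of cyclin destruction 1 rose and 7 fell in WT arrays (median -0.26). Skp2, the ligase subunit that marks Cdkn1b for destruction, fell by 1.31, Fbxo5, an inhibitor of the anaphase-promoting complex, by 1.65 and Ube2c, its ubiquitin-conjugating enzyme, by 1.29. Fbxw7, the ligase subunit that recognises cyclin E, rose by 0.69 ± 0.10 (adjusted p = 3.01e-05). In 53,54 arrays 1 rose and 7 fell, with Fbxw7 at 0.65 ± 0.12 and Fbxo5 at -2.10 ± 0.27. In 25,26 arrays Fbxo5 alone passed (-0.88 ± 0.23, adjusted p = 0.0275).

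Of 22 genes that control cyclin transcription 1 rose and 10 fell in WT arrays (median -0.23). The retinoblastoma gene Rb1, which holds E2F factors in check, rose by 2.09 ± 0.16 in WT, 2.68 ± 0.20 in 53,54 and 1.09 ± 0.17 in 25,26 arrays (adjusted p = 6.17e-09, 2.89e-09 and 0.000328). Its relative Rbl1 (p107) fell by 0.96 in WT arrays, and Mybl2 and Lin9, partners in the complex that activates G2 and M genes, fell by 1.29 and 1.44. In 25,26 arrays Mybl2 fell by 0.90 (SE 0.19, adjusted p = 0.00782), while Lin9 differed by -0.40 ± 0.23 (adjusted p = 0.424).

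Of 14 other cyclins 1 rose and none fell in WT arrays, and that 1 was Ccng1, a p53 target, at 3.30 ± 0.09 in WT, 3.20 ± 0.11 in 53,54 and 2.33 ± 0.09 in 25,26 arrays. The median of the 14 was 0.00. Of 17 other cyclin-dependent kinases 2 rose and 2 fell in WT arrays (median 0.04), 4 of 17 where 22.7% of all genes changed. The fallers were Cdk6 and Cdk4, partners of the D cyclins, Cdk6 by 0.70 (SE 0.10, adjusted p = 1.84e-05) and Cdk4 by 0.30 (SE 0.10, adjusted p = 0.0403), while Cdk18 rose by 1.69 ± 0.33 and Cdk5 by 0.31 ± 0.08. In 53,54 arrays Cdk6 fell by 0.72 and Cdk4 by 0.42. In 25,26 arrays Cdk6 differed by -0.17 ± 0.10 and Cdk4 by -0.05 ± 0.11, and neither passed, while Cdk18 rose by 1.24 (adjusted p = 0.0435). In QM arrays none of the genes in these 6 lists passed against Null.

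Markers of other cell types differed between the groups as well. Of 15 fibroblast markers 7 fell in WT against Null and none did in 53,54 against Null. Of 9 epithelial markers 4 rose in WT and 3 in 53,54 arrays, and their summed intensity was 4576 to 7661 in WT, 5446 to 6929 in 53,54, 3505 to 7593 in 25,26, 3609 to 4922 in QM and 1991 to 4466 in Null arrays. Of 6 skeletal muscle markers 1 rose in WT and 1 in 53,54 arrays, and their sum was 1306 to 5081 in WT, 1105 to 1544 in 53,54, 648 to 1181 in 25,26, 844 to 948 in QM and 655 to 1123 in Null arrays. The WT sums did not overlap those of Null for epithelial or muscle markers. Of 6 tested macrophage markers 1 rose in WT and 2 in 53,54 arrays, and the sum over all 9 was 503 to 967 in WT, 906 to 1036 in 53,54, 619 to 767 in 25,26, 486 to 631 in QM and 490 to 620 in Null arrays. Of the 9 macrophage markers Cd68, Csf1r, Cd14 and Fcgr1 lay above the filter in all 23 arrays, and Ptprc and Itgam in none. Of 7 endothelial markers Cdh5 and Kdr lay above it in all 23 arrays and Pecam1, Emcn and Vwf in none, and no tested one passed. Of 6 neural markers 1 rose in WT and 1 fell in 53,54 arrays. None of these lists had a marker that passed in 25,26 or QM against Null. Acta1 was the brightest muscle marker (8.25 to 12.20 over all arrays, with the others at most 7.75). Krt18 was the brightest epithelial one (10.08 to 12.62, with the others at most 10.12). Whether other cell types were present, and any part of them in the cyclin levels, was not tested.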

How the data were processed

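Per the submitters' processing notes the arrays were summarised by RMA, whose version is not given in the sources used here. The authors deposited an intensity for every probe set, not in logs, from 8.55 to 32042.05, with array medians of 59.9 to 64.22. The number of arrays limits the precision. These values were turned to log2. Of 45101 probe sets 64 controls were left out. In the platform annotation 34945 of the others carried 1 symbol, 932 carried several and 9160 were not listed, and genes were named from the first kind. The brightest probe set on average stood for each of 18193 genes, and 15266 genes with at least 3 arrays over log2 4.79 (the 30th percentile of the data) were tested.

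A model of 5 group means, and one of 7 genotype and virus sets for the parts of the WT comparison, were fitted to all 23 arrays with limma 3.58.1 (R 4.3.3) and tested two-sided with Benjamini-Hochberg adjustment. The method was tested on simulated data. The series design calls the arrays of a group biological samples. Strain background differed within every group, so not all arrays of a group share a source. Nothing in the labels ties each array to its own embryo, so p-values measure the spread between these samples, which may be technical in part. No 2 columns were identical (highest correlation between arrays 0.997).

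Title numbers were taken to pair arrays where the residuals of every same-number pair, of 3 or more pairs, correlated over 0.1. That held in WT with Null (10 of 10 pairs, lowest 0.13), 25,26 with Null (6 of 6, lowest 0.15) and the LSL-WT part (3 of 3, lowest 0.72), among others, and failed in 25,26 with QM (2 of 3). WT Cre with Null Cre and 53,54 with QM share only 2 numbers, so a blocked value there shows arrays with a shared number and no proven pairing. No label says what the number marks.

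All members are described with every probe set. Each list names its 4 genes with the largest statistic in WT with Null, and each member its 3 nearest genes outside the set. The members and lists were chosen with earlier results of these data known. The alternatives changed the filter, the way probe sets become genes, the normalization (quantile), the terms of the model (strain, Xist, title number), the variance estimate or the arrays used (weights, the compared groups only, 1 array fewer, no title number 2, or 1 part of WT or Null).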

Additional observations from a re-analysis of the deposited data

Results flagged for a closer look

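One result stood out. The WT minus Null difference of Ccne2 was larger in the LSL-WT part than in the separate lines by -1.63 ± 0.31 on the log2 scale, in a fit with the title number as a block (adjusted p = 0.0238). Without the block the same difference was -1.38 ± 0.59 (adjusted p = 0.579), and over the 12 arrays left out in turn without the block it lay between -1.65 and -0.97 (adjusted p from 0.436 to 0.957). The LSL-WT part compares Cre with Empty virus in 3 arrays each, with the same title numbers and strain backgrounds on both sides. There p53 and the virus change together and cannot be told apart, while both sides of the separate lines had Adeno-Cre. The separate lines differ also in Xist, strain background and title number. Among them only WT replicate 6 is on the mixed background. Title numbers there run from 1 to 3 in WT arrays and from 2 to 4 in Null arrays, with only 2 shared. The separate parts of virus, Xist, strain and title number in the Ccne2 gap were not tested. Single arrays were also looked for in the groups of 4 or more (WT, 25,26 and Null) in all 9 genes. By the gap of the highest or lowest array to its nearest neighbour, no single array stood apart in these 27 combinations. That measure misses a pair of arrays that lie together, such as WT replicates 2 and 5 for Ccnb2.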

How the results depend on the processing

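In counts of the 9 genes called, title numbers as a replicate block gave 3 in 25,26 against Null, 1 in 25,26 against QM (Cdk2, adjusted p = 0.00594) and 1 in the difference between the parts, and changed no call other than those and the ones given with the results. Array weights gave 1 in 25,26 against Null, 2 in 53,54 against WT, 5 in 25,26 against WT and 1 in 25,26 against QM. The compared arrays alone gave 2 in 25,26 against Null (with 637 of all 15266 genes called) and 0 in 25,26 against WT (648). They gave 3 in the LSL-WT part (807) and 4 in QM against WT (1284). Without title number 2 there was 1 in 25,26 against Null (505 of all genes), and with Null Cre alone 5 in 53,54 against Null (2257). With Xist there were 1 in the separate lines (1306) and 5 in WT against Null (2810). Strain as a term gave 6 in the separate lines (2576). With each array left out in turn the counts ran from 1 to 4 in 25,26 against WT, 0 to 4 in 25,26 against 53,54, 5 to 8 in 53,54 against Null, 4 to 6 in 53,54 against QM and in the LSL-WT part, and 2 to 5 in the separate lines. In those fits the calls over all genes ran, in that order, from 713 to 1329, 196 to 869 and 1923 to 2985. They ran from 1288 to 1985 in 53,54 against QM, 994 to 1661 in the LSL-WT part and 1648 to 2571 in the separate lines. Differences that changed sign were uncalled both ways. With the mean of probe sets these were Ccnd2 in QM against Null (7.19e-05), Ccnd1 in 53,54 against QM (0.013) and Ccnd3 in the separate lines (-0.11). Ccnd3 there was -0.082 with the block and -0.085 with Xist. In QM against Null, Xist gave Ccna2 0.12, Ccnb2 0.10 and Cdk1 0.057, array weights Ccna2 0.026, Ccnd2 0.065 and Ccnd3 0.10, Null Cre alone Ccna2 0.072 and Ccnd3 0.046, and leaving out number 2 Ccnd3 0.047. Ccnd1 in 25,26 against QM was -0.018 with weights and -0.029 without number 2. With LSL-WT Cre alone as WT, Ccne2 in 53,54 against WT was 0.47 and Ccne1 in 25,26 against WT 0.22. With an array left out, Ccnd1 in 25,26 against QM ran from -0.034 to 0.078, Ccne2 in 25,26 against Null from -0.40 to 0.019, Ccnb2 in 53,54 against WT from -0.60 to 0.082, Ccnd3 in QM against WT from -0.0038 to 0.21 and Ccnd3 in the separate lines from -0.032 to 0.36. In QM against Null the ranges were -0.090 to 0.017 for Ccna2, -0.15 to 0.064 for Ccnd2, -0.13 to 0.083 for Ccnd3, -0.019 to 0.35 for Ccne2 and -0.0091 to 0.21 for Cdk2. For the difference between the parts they were -0.74 to 0.054 (Ccna2), -0.66 to 0.43 (Ccnb2) and -0.80 to 0.020 (Cdk1). The cause was not tested. Counts over all genes moved by more than 1.5 times too. With the block (and without it) they were 4847 (2986) in 53,54 against Null, 2167 (656) in 25,26 against Null, 158 (56) in 53,54 against WT, 1828 (1176) in 25,26 against WT, 4025 (2125) in QM against WT, 603 (103) in 25,26 against QM, 3580 (2034) in 53,54 against QM, 1361 (713) in 25,26 against 53,54, 4078 (1785) in the LSL-WT part, 4297 (2433) in the separate lines and 245 (1) between the parts. Array weights gave 5457 in 53,54 against Null, 1435 in 25,26 against Null, 7 in QM against Null (2 unweighted), 734 in 53,54 against WT, 2288 in 25,26 against WT, 506 in 25,26 against QM, 4255 in 53,54 against QM, 3974 in 25,26 against 53,54 and 24 between the parts. The compared arrays alone gave 0 in QM against Null, 3 in 53,54 against WT, 648 in 25,26 against WT, 1284 in QM against WT, 807 in the LSL-WT part, 1186 in the separate lines and 0 between the parts. Xist gave 346 in 25,26 against Null, 1306 in the separate lines and 0 between the parts. Null Cre alone gave 422 in 25,26 against Null and 23 in QM against Null, and LSL-WT Cre alone 7 in 53,54 against WT and 505 in 25,26 against WT. Filtering on the mean gave 37 in 53,54 against WT, and leaving out number 2 gave 1157 in the LSL-WT part. Between the parts, quantile normalization gave 12, strain 9, the mean of probe sets 2 and no number 2 gave 4. Tested over probe sets in place of genes, the calls numbered 5746 in WT against Null (3465 genes), 4956 in 53,54 against Null, 4 in QM against Null, 3263 in 53,54 against QM, 2813 in the LSL-WT part, 4236 in the separate lines and 7 between the parts. With an array left out, the calls over all genes ran down to 11 (without 53,54 replicate 3) and up to 143 (without WT replicate 2) in 53,54 against WT, and between the parts from 0 (without WT replicate 1, among others) to 47 (without WT replicate 6, the array with the differing genotype entry). They fell to 196 in 25,26 against 53,54, 1923 in 53,54 against Null and 1288 in 53,54 against QM, all without 53,54 replicate 3. The lowest others were 415 in 25,26 against Null (without 25,26 replicate 3), 713 in 25,26 against WT (without 25,26 replicate 5), 50 in 25,26 against QM (without QM replicate 2), 1399 in QM against WT (without QM replicate 3), 0 in QM against Null (without QM replicate 1 or 3) and 994 in the LSL-WT part (without WT replicate 2).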
